A study of Mus musculus with 6 samples.

Results

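Microglia genes were examined in the brain without its cerebellum of mice lacking Gb5, as 32 genes listed by name as known microglia markers. The rule uses no measured value, although the genes were chosen with earlier results of these data known. Every probe set annotated to exactly 1 of these gene symbols was taken, which gave 46 of 45037 probe sets tested and all 32 of the genes, of 18193 genes read by a 1-gene probe set. The series holds 6 Affymetrix arrays, 1 per sample: 3 from Gb5-deficient mice (Gb5ko, arrays 1 to 3) and 3 from their wild-type littermates (Gb5wt, arrays 4 to 6). Gnb5 encodes Gb5, an atypical G protein beta subunit whose stable partners are RGS proteins of the R7 family. No treatment, Cre or transgene is named in the labels for either genotype, the cohorts were matched for age and sex, and all animals were kept in a pathogen-free facility. Age, sex per animal, strain and how the deletion was made are not given in the sources used here. The samples are described as biological replicates. P-values rest on the spread between them, pooled in part over all probe sets, and on no other source of variation. Gnb5 itself read 3.67, 3.00 and 3.56 in the Gb5ko arrays and 8.79, 8.98 and 9.30 in the Gb5wt arrays on the log2 scale, in the order the labels give.

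Microglia are the resident macrophages of the brain parenchyma. They depend on signalling through the receptor Csf1r and on the transcription factor PU.1, encoded by Spi1, and in the resting brain they carry a set of sensing receptors, such as Cx3cr1 for neuronal fractalkine and P2ry12 for nucleotides, that couple to inhibitory G proteins. After injury or in disease the resting, or homeostatic, receptors typically fall while lysosomal, phagocytic and activation genes rise. Complement C1q, in the brain made mainly by microglia, tags synapses and debris for uptake.

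The members were grouped by these roles into 9 homeostatic genes, 5 lineage genes, 5 complement genes, 8 phagocytic genes and 5 activation genes. Each gene was read by its main probe set, the one with the highest mean over the 6 arrays. Those means ran from 2.84 for Itgam, an integrin chain of complement receptor 3, to 11.91 for Csf1r. A probe set's brightness depends on its probes, so levels were not ranked between genes. Of the 32 main probe sets, 12 lay above percentile 75 of all probe sets and 2, those of Itgam and Cst7, below percentile 25. No detection calls were used, and a difference at these 2 could be hidden in background signal. Because whole tissue was measured, fewer or more microglia and less or more RNA per microglial cell cannot be told apart in any value below.

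Differences of the microglia genes between Gb5-deficient and wild-type brain were small, and none passed the test across the array. The most positive were those of Itgb2 at 0.37 and of Spi1, Aif1, Cx3cr1 and Lgals3 at 0.35 each, and the most negative those of Gpr34 at -0.51 and Sall1 at -0.32. In limma, 0 of the 46 member probe sets had an adjusted p under 0.05, where 0.0266% of all probe sets did, and the smallest adjusted p of a member was 0.193. At an unadjusted limma p under 0.05, 10 of 32 members were higher in Gb5ko, against a background of 9.89% of all genes, and 1 was lower, against 5.68%. Groups did not overlap, with every Gb5ko array above every Gb5wt array, at 9 members, where 16.1% of all genes behaved so. The opposite held at 3 members, against 9.01% of all genes. Of the members 23 had a positive difference and 9 a negative one, while 59.9% of all genes were positive. The median difference over members was 0.17, beside 0.05 over all genes. Differences are Gb5ko minus Gb5wt on the log2 scale. Of the 16 brighter members, with mean levels from 7.78 to 11.91, 5 were nominally higher, and of the 16 dimmer ones also 5.

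**Figure D1:**
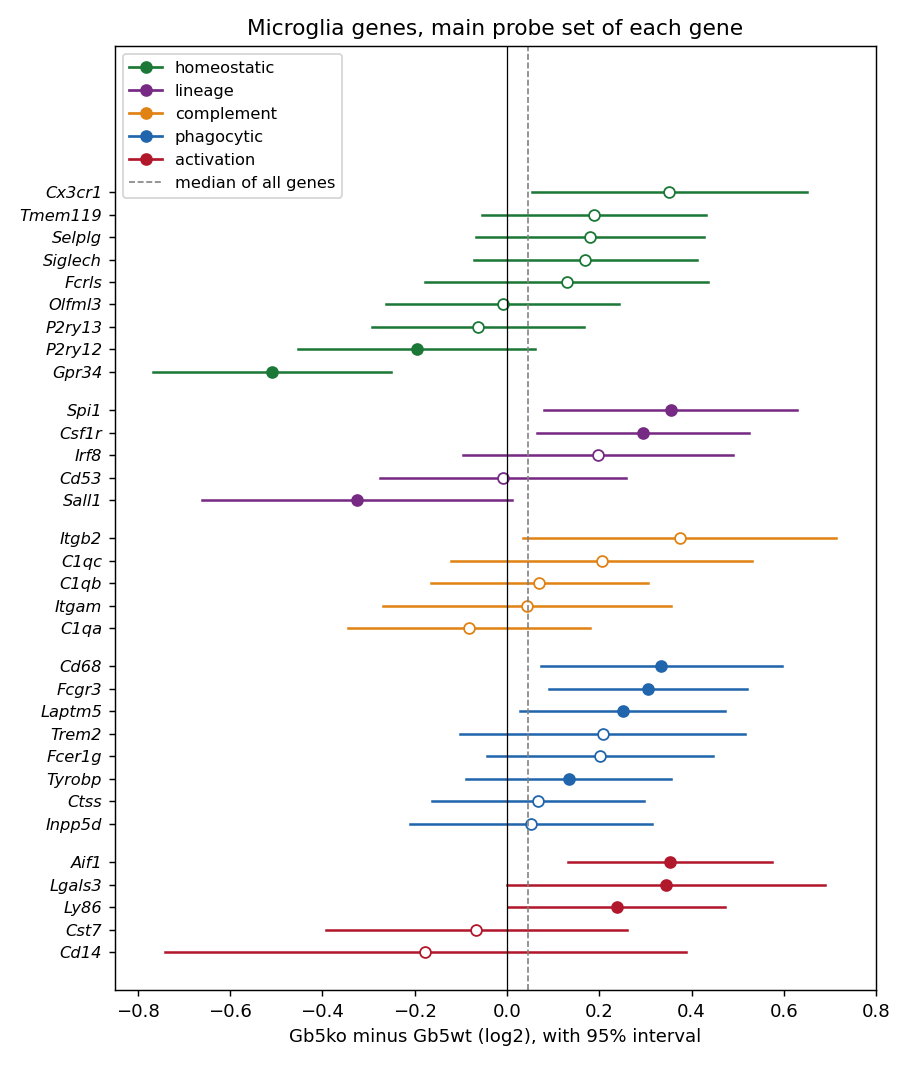
Difference between Gb5ko and Gb5wt (log2, horizontal axis) for the main probe set of each of the 32 microglia genes, by class, with the 95% interval of the limma fit as a line. Filled points are the 12 members whose groups do not overlap and the dashed line is the median of all genes, 0.05. Gpr34 lies lowest at -0.51 and Itgb2 highest at 0.37.

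The differences were small in size. Over all main probe sets the 95% intervals reached no lower than -0.77, for Gpr34, and no higher than 0.71, for Itgb2, which are folds of 1.70 and 1.64. These intervals are not adjusted for the number of genes. The count of 10 nominally higher members rested on the full set of arrays. It was 9 without Gb5ko array 2, 5 without Gb5ko array 1, 4 without Gb5ko array 3, 5 without Gb5wt array 4, 5 without Gb5wt array 5 and 6 without Gb5wt array 6. The share over all genes in each of these fits is not given here, so these counts have no background beside them. With 1 array left out, unadjusted p values stayed under 0.05 in all 6 fits for Gpr34, Aif1 and Fcgr3, in 5 of 6 for Csf1r and Spi1, in 3 of 6 for Cd68, in 2 of 6 for Cx3cr1, Itgb2, Laptm5 and Lgals3, and in 0 of 6 for Ly86.

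Homeostatic genes differed in both directions. Gpr34, a lysophosphatidylserine receptor of the P2Y12-like group, read 7.18, 7.32 and 7.51 in Gb5ko arrays, against 7.88, 7.90 and 7.76 in Gb5wt arrays. All Gb5ko values were below all Gb5wt values, with means of 7.34 ± 0.162 and 7.85 ± 0.0743 (SD, n = 3 each), and the difference of -0.51 ± 0.114 (SE), 1.42-fold lower, had a limma adjusted p of 0.193. Gpr34 lies on the X chromosome, and with the Y-linked transcript Eif2s3y as a covariate its difference was -0.51. Group means of Eif2s3y were nearly equal, 7.07 in Gb5ko and 7.12 in Gb5wt, so this covariate could hardly move a group difference. The part of sex in the Gpr34 value was not tested.

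P2ry12, the ADP receptor that guides microglial processes to injury, read 6.70, 6.90 and 6.89 in Gb5ko arrays, against 7.18, 6.94 and 6.96 in Gb5wt arrays. Groups did not overlap, although array 2 of Gb5ko and array 5 of Gb5wt lay close together. The difference was -0.20 (95% interval -0.45 to 0.06, limma adjusted p = 0.452). P2ry13, a related ADP receptor, differed by -0.06 (-0.29 to 0.17). Negative values were thus measured at all 3 P2Y12-like receptors on the list, of which Gpr34 alone had an interval that excluded 0. These were set side by side after their values were seen.

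Cx3cr1, the fractalkine receptor, read 7.12, 6.69 and 7.04 in Gb5ko arrays, against 6.61, 6.51 and 6.69 in Gb5wt arrays. Gb5ko array 2 fell at the level of the highest Gb5wt array, so the groups overlapped. The difference was 0.35 ± 0.132 (SE) with a limma adjusted p of 0.288. Cx3cr1 is the 1 member on chromosome 9, which also carries Gnb5, and the part of linked sequence in its value was not tested. Its second probe set, dim at 4.11, differed by 0.04.

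Tmem119, a membrane protein that separates microglia from blood macrophages, read 7.93, 7.74 and 7.96 in Gb5ko arrays, against 7.59, 7.72 and 7.75 in Gb5wt arrays. The groups overlapped narrowly and the difference was 0.19 (95% interval -0.05 to 0.43). Other homeostatic genes lay between these: the sialic acid-binding lectin Siglech at 0.17, the selectin ligand Selplg at 0.18, the Fc receptor-like gene Fcrls at 0.13 and the secreted matrix protein gene Olfml3 at -0.01. Their adjusted p values in limma ran from 0.473 to 0.979. Of the 9 homeostatic genes 5 were positive and 4 negative, with a median of 0.13.

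Lineage genes divided between PU.1 with the growth factor receptor and Sall1. Csf1r, the receptor for CSF1 and IL-34 that microglia need to survive, read 12.07, 11.94 and 12.17 in Gb5ko arrays, against 11.75, 11.77 and 11.78 in Gb5wt arrays. The Gb5wt values were nearly equal, and every Gb5ko value lay above them. The difference was 0.30 ± 0.102 (SE; limma adjusted p = 0.269). Spi1, encoding PU.1, read 5.65, 5.37 and 5.28 in Gb5ko arrays, against 5.15, 5.00 and 5.09 in Gb5wt arrays. Here Gb5ko array 1 stood highest, and the difference was 0.35 ± 0.122 (SE; limma adjusted p = 0.269).

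Sall1, a zinc finger factor that keeps microglia in the resting state and is also active in other neural cells, read 9.11, 9.54 and 9.43 in Gb5ko arrays, against 9.93, 9.56 and 9.57 in Gb5wt arrays. The groups did not overlap, but the gap between Gb5ko array 2 and Gb5wt array 5 was small. The difference was -0.32 ± 0.149 (SE; limma adjusted p = 0.358), and a second, dimmer Sall1 probe set had the opposite sign at 0.16. Irf8, a partner factor of PU.1, differed by 0.20, and the leukocyte tetraspanin gene Cd53 by -0.01.

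Complement genes had 4 positive differences and 1 negative one, with intervals that included 0 except for Itgb2. C1qa, C1qb and C1qc encode the chains of C1q. C1qa read 7.21, 7.43 and 7.46 in Gb5ko arrays, against 7.58, 7.33 and 7.44 in Gb5wt arrays. C1qb read 11.61, 11.70 and 11.64 in Gb5ko arrays, against 11.68, 11.62 and 11.44 in Gb5wt arrays. The third chain, C1qc, read 8.54, 8.15 and 8.05 in Gb5ko arrays, against 8.04, 8.17 and 7.92 in Gb5wt arrays. Groups overlapped at every C1q gene, and Gb5ko array 1 held both the lowest C1qa and the highest C1qc value. Differences were -0.08 (95% interval -0.34 to 0.18) for C1qa, 0.07 (-0.16 to 0.30) for C1qb and 0.20 (-0.12 to 0.53) for C1qc.

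Of the chains of complement receptor 3, Itgb2, the beta-2 integrin that all leukocytes share, read 5.63, 5.35 and 5.72 in Gb5ko arrays, against 4.93, 5.41 and 5.24 in Gb5wt arrays. Gb5wt array 5 lay above Gb5ko array 2, so the groups overlapped, and the difference was 0.37 ± 0.15 (SE; limma adjusted p = 0.312). Its partner Itgam, at the bottom of the signal range, differed by 0.04.

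Phagocytic genes all had positive differences, 8 of 8, with a median of 0.20. Fcgr3, a low-affinity receptor for IgG, read 8.86, 8.89 and 8.97 in Gb5ko arrays, against 8.57, 8.62 and 8.62 in Gb5wt arrays. Both groups were tight, with means of 8.91 ± 0.0584 and 8.60 ± 0.0285 (SD, n = 3 each), and did not overlap. The difference was 0.31 ± 0.0947 (SE; limma adjusted p = 0.251). Cd68, a lysosomal glycoprotein of phagocytes, read 7.88, 7.70 and 7.85 in Gb5ko arrays, against 7.36, 7.40 and 7.66 in Gb5wt arrays. Gb5wt array 6 came close to Gb5ko array 2, and the difference was 0.33 ± 0.116 (SE; limma adjusted p = 0.269).

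Laptm5, a lysosomal membrane protein of leukocytes, read 11.37, 11.22 and 11.35 in Gb5ko arrays, against 11.03, 11.12 and 11.04 in Gb5wt arrays, a difference of 0.25 ± 0.098 (SE; limma adjusted p = 0.302). The receptor Trem2 and its adaptor Tyrobp, also called DAP12, relay uptake signals for lipids and debris. Trem2 read 6.12, 6.13 and 6.29 in Gb5ko arrays, against 5.71, 6.02 and 6.19 in Gb5wt arrays. Tyrobp read 10.20, 10.14 and 10.18 in Gb5ko arrays, against 10.09, 10.10 and 9.94 in Gb5wt arrays. Groups overlapped for Trem2 and did not for Tyrobp or Laptm5. The differences of 0.21 for Trem2 (95% interval -0.10 to 0.52) and 0.13 for Tyrobp (-0.09 to 0.36) had intervals that included 0. Fcer1g, the shared signalling chain of Fc receptors, differed by 0.20, the lysosomal protease gene Ctss by 0.07 and the phosphatase gene Inpp5d, which restrains Trem2 signalling, by 0.05.

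Activation genes differed in both directions, 3 positive and 2 negative. Aif1, which encodes the actin-bundling protein Iba1, read 8.43, 8.39 and 8.45 in Gb5ko arrays, against 8.05, 7.996 and 8.16 in Gb5wt arrays. The groups were well apart, at 8.42 ± 0.0322 and 8.07 ± 0.0848 (SD, n = 3 each), and the difference of 0.35 ± 0.0978 (SE), 1.28-fold, had a limma adjusted p of 0.225. The Aif1 probe set carries the suffix by which Affymetrix marks probes shared between transcripts, as does the main probe set of Trem2. Those of C1qb and Laptm5 carry the suffix x_at, for probes that may also match other transcripts. Ly86, the MD-1 partner of the receptor RP105, read 9.78, 9.63 and 9.70 in Gb5ko arrays, against 9.35, 9.54 and 9.51 in Gb5wt arrays, a difference of 0.24 ± 0.104 (SE; limma adjusted p = 0.341).

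Lgals3, encoding galectin-3, read 5.79, 5.27 and 5.33 in Gb5ko arrays, against 5.17, 5.22 and 4.95 in Gb5wt arrays. The groups did not overlap, but Gb5ko array 1 stood apart from the other two, and without it the difference was 0.18 in place of 0.35. Cst7, a cystatin that is among the strongest markers of disease-associated microglia in mouse, read 3.63, 3.26 and 3.66 in Gb5ko arrays, against 3.80, 3.44 and 3.51 in Gb5wt arrays. All 6 Cst7 values were dim and overlapped (difference -0.07, 95% interval -0.39 to 0.26). The endotoxin co-receptor gene Cd14 had the widest interval of the list, -0.74 to 0.39 around -0.18.

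**Figure D2:**
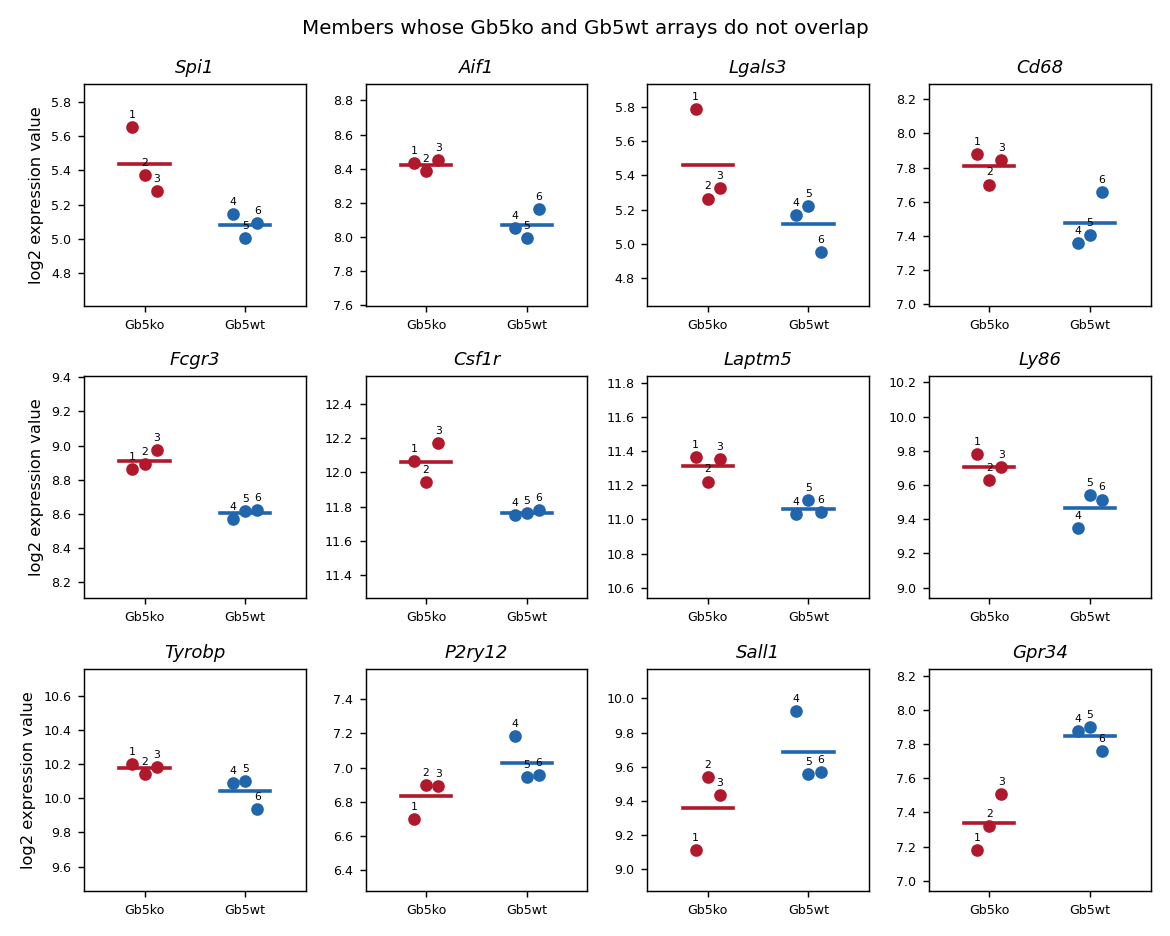
Log2 expression value on each array for the 12 members whose groups do not overlap, Gb5ko left and Gb5wt right, with array numbers beside the points and group means as bars. Each panel has its own vertical axis of equal span. Spi1 to Tyrobp are higher in Gb5ko, and P2ry12, Sall1 and Gpr34 are lower.

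Class medians were 0.13 for homeostatic, 0.20 for lineage, 0.07 for complement, 0.20 for phagocytic and 0.24 for activation genes, beside 0.05 over all genes. Array by array, the means of phagocytic and complement genes did not overlap between genotypes, while those of the other classes did. Groups overlapped at each of the 5 complement genes taken singly. Itgb2, at 0.37, had the largest difference of these 5, and the complement means without it are not given here. Means over all 32 members and over all genes did not overlap either. The mean deviation of phagocytic genes from each gene's 6-array mean was 0.09, 0.10 and 0.11 in Gb5ko arrays, against -0.13, -0.09 and -0.07 in Gb5wt arrays. For complement genes it was 0.04, 0.07 and 0.08 in Gb5ko arrays, against -0.08, 0.00 and -0.10 in Gb5wt arrays. Homeostatic genes overlapped, at -0.01, -0.07 and 0.12 in Gb5ko arrays and -0.03, 0.01 and -0.01 in Gb5wt arrays, and Gb5ko array 3 alone lay clearly above the rest. Over all genes the deviation was 0.05, 0.00 and 0.00 in Gb5ko arrays and -0.02 in each Gb5wt array. Gb5ko array 3 held the highest of the 6 values in 10 members and the lowest in 0, Gb5ko array 1 the highest in 10 and the lowest in 9, and Gb5wt array 6 the highest in 0 and the lowest in 8. The differences between classes were not tested. Without Gb5wt array 4 the homeostatic median was 0.03, the lineage median 0.12 and the complement median 0.12, and without Gb5ko array 3 the lineage median was 0.08.

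**Figure D3:**
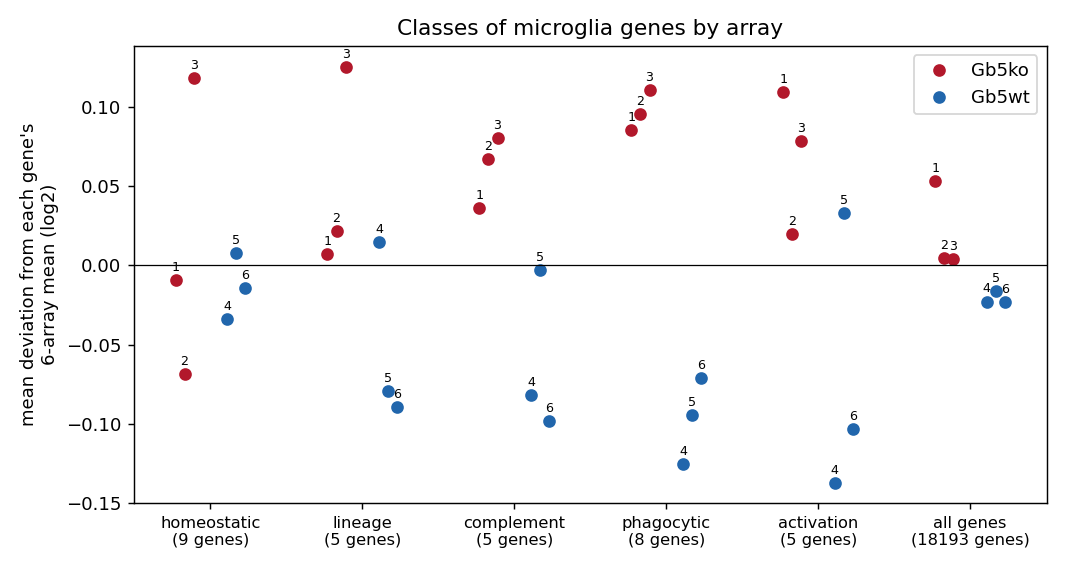
Mean deviation from each gene's 6-array mean (log2, vertical axis) per array for the 5 classes of microglia genes and for all genes, Gb5ko left and Gb5wt right, with array numbers beside the points. Phagocytic genes lie at 0.09 to 0.11 on the Gb5ko arrays and at -0.13 to -0.07 on the Gb5wt arrays, while homeostatic genes overlap. The means over all genes do not overlap either.

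Probe sets of 1 gene mostly gave the same sign and seldom the same size. Of the members 23 had 1 probe set and 9 had several, with 14 further probe sets, of which 11 shared the sign of the main one. None of these 14 had an unadjusted limma p under 0.05. Csf1r read 0.30, 0.20 and 0.04 from its brightest to its dimmest probe set, at mean levels of 11.91, 9.51 and 7.04. C1qb ran the other way, with 0.07, 0.11 and 0.19 at mean levels of 11.61, 10.48 and 7.67. Irf8, at 0.20 in both probe sets, and Trem2, at 0.21 and 0.16, were close in size. Laptm5 had 5 probe sets. Its 2 brightest gave 0.25 and 0.15, both with groups that did not overlap, and the other 3, at mean levels from 3.33 to 4.90, lay between -0.15 and 0.10. Sall1 was the 1 gene read by 2 probe sets that differed in sign, at -0.32 and 0.16.

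**Figure D4:**
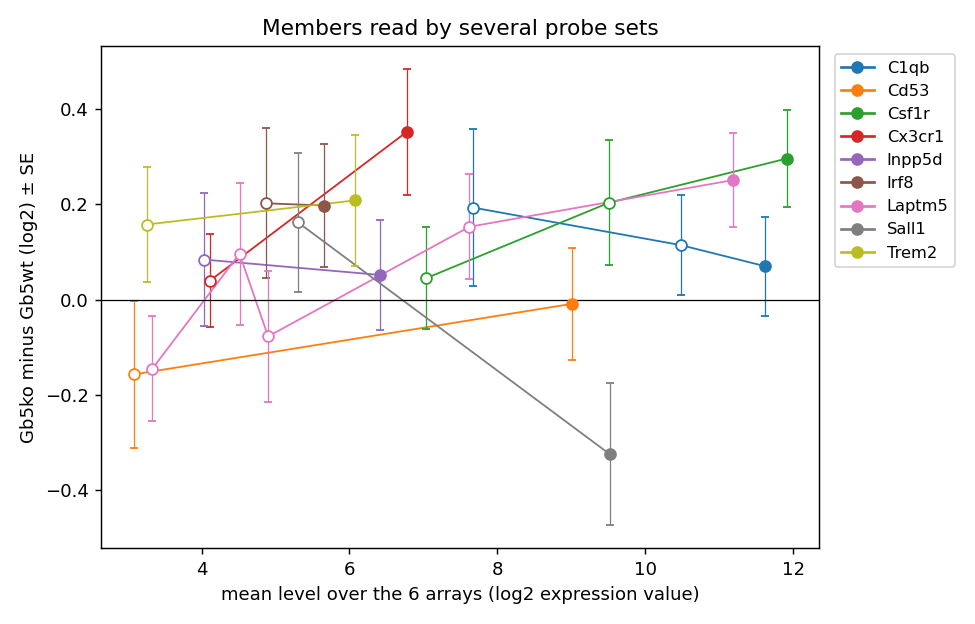
Difference between Gb5ko and Gb5wt (log2, with SE of the limma fit) against the mean level over the 6 arrays for the 9 members read by several probe sets. Filled points are main probe sets, open points the other 14, and lines join probe sets of 1 gene. Sall1 changes sign between its probe sets, and Csf1r declines from 0.30 to 0.04 as its probe sets become dimmer.

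Other genes of the same pathways, listed by role, also held 0 genes that passed in limma after adjustment. Among 18 measured genes of signalling below Trem2, Fc receptors and integrins, 5 were higher and 0 lower at an unadjusted limma p under 0.05, beside 9.89% and 5.68% of all genes. Groups did not overlap at 6 higher genes and 1 lower gene, the sialic acid-binding receptor gene Cd33, beside 16.1% and 9.01% of all genes. The kinase gene Syk, which binds phosphorylated Tyrobp and Fcer1g, read 6.02, 5.88 and 6.29 in Gb5ko arrays, against 5.41, 5.69 and 5.52 in Gb5wt arrays. All 3 Gb5ko values were higher, and the difference was 0.52 ± 0.133 (SE; limma adjusted p = 0.213). Rac2, a leukocyte GTPase of the oxidative burst, differed by 0.43 ± 0.114 (SE) and Fermt3, a kindlin that activates beta-2 integrins, by 0.40 ± 0.106 (SE), with limma adjusted p values of 0.218 and 0.22. That list's median was 0.12.

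Counts at an unadjusted p in the remaining lists stand beside the same 9.89% higher and 5.68% lower over all genes. Receptor ligands gave 0 of 11 genes at that unadjusted level, including Csf1 at 0.05, Il34 at 0.13 and the fractalkine gene Cx3cl1 at 0.11. Their smallest p values belonged to Cd47, which signals against uptake, at -0.30, Tgfb2 at 0.24 and the Axl ligand gene Gas6 at 0.28. Of 20 measured disease-associated microglia genes, 3 were higher and 0 lower, the beta-glucan receptor gene Clec7a at 0.49, the chemokine gene Ccl6 at 0.33 and the cathepsin gene Ctsz at 0.26. Clec7a was dim, at 3.78, 3.20 and 3.18 in Gb5ko arrays and 2.81, 2.83 and 3.06 in Gb5wt arrays, and its groups did not overlap. Further homeostatic genes gave 1 higher of 16, the nucleotide receptor gene P2ry6 at 0.33, with Itgb5 at 0.23 and Mertk at -0.25. The complement cascade gave 1 higher, C1s1 at 0.33, and 1 lower, the C1 inhibitor gene Serping1 at -0.23, of 10, with Cd55 at -0.11. Of 16 cytokine and chemokine genes 1 was higher, Ccl12 at 0.31, and Ccl3 differed by -0.31 and Il1a by 0.18. Of 16 pattern recognition genes 0 were higher and 1 was lower, the inflammasome gene Nlrp3 at -0.35, with P2rx4 at 0.20 and Myd88 at 0.17.

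Several members are also made by other leukocytes, so markers of those cells were read on the same arrays. Of 9 perivascular macrophage markers 6 were positive, with a median of 0.17, and their mean level ran from 6.43 to 6.60 in Gb5ko arrays and from 6.41 to 6.47 in Gb5wt arrays. Of 8 neutrophil markers 6 were positive, with mean levels from 4.31 to 4.48 in Gb5ko arrays and from 3.93 to 4.33 in Gb5wt arrays. Their largest difference was that of S100a9, a calcium-binding protein of granulocytes, at 0.91 ± 0.268 (SE; limma adjusted p = 0.24), which read 7.47, 7.60 and 7.03 in Gb5ko arrays and 5.95, 6.30 and 7.10 in Gb5wt arrays, with 1 Gb5wt array above the lowest Gb5ko array. Of 10 lymphocyte markers 8 were positive, with the B cell receptor gene Cd79b at 0.58. The other B cell genes, Cd79a and Ms4a1, differed by 0.17 and -0.01. Among the neutrophil markers, Elane, Mpo, Ltf, Camp and Mmp8 were dim, with mean levels from 2.81 to 3.80. Among the lymphocyte markers, Cd3d, Cd3e, Cd3g, Nkg7 and Ms4a1 were dim, from 2.94 to 3.30. Background could not be told from signal at these dim markers. Of 5 monocyte markers 4 were negative, with Ccr2, dim at 3.06, at -0.30. Over all genes 59.9% were positive. Of 7 listed red cell markers 3 were measured, and all 3 were negative. Slc4a1 differed by -0.93, with groups that did not overlap. Groups overlapped for Alas2, at -0.25, and for Hba-a1, dim at 3.23, which differed by -0.11. The part of all these cells in the differences of the members was not tested.

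Markers of other brain cells were read as well. Negative differences were measured at 9 of 9 oligodendrocyte markers, with a median of -0.25, at 8 of 8 meningeal fibroblast markers, with a median of -0.33, and at 10 of 11 endothelial and mural markers, with a median of -0.14. Of 10 astrocyte markers 4 were positive and 6 negative, with a median of -0.08. Groups did not overlap at 4 lower markers, among them Gjb6 at -0.59 and Gja1 at -0.45, beside 9.01% of all genes. At 1 higher marker, Sox9 at 0.12, they did not overlap either, beside 16.1% of all genes. Aldh1l1 was the most positive at 0.35, with groups that overlapped. Of 10 neuron markers 4 were positive and 6 negative, with a median of -0.02. Their groups did not overlap at 2 lower markers, Snap25 and Gad1 at -0.33 each, beside 9.01% of all genes. The same held at 2 higher ones, Slc17a7 at 0.27 and Stmn2 at 0.17, beside 16.1% of all genes. Pituitary markers were positive at 7 of 7, beside 59.9% of all genes, with a median of 0.52, but groups overlapped at all 7. Gb5ko array 3 read 10.62, 9.32 and 8.35 for the hormone genes Gh, Cga and Tshb, against at most 5.31 on arrays 1 and 2. Within groups, arrays differed in sex-linked and pituitary transcripts. Eif2s3y ran from 2.96 to 11.28 in Gb5ko arrays and from 4.05 to 11.26 in Gb5wt arrays, and Gh, the growth hormone gene, from 4.67 to 10.62 in Gb5ko arrays and from 4.20 to 6.21 in Gb5wt arrays. Xist and Eif2s3y read 8.31 and 11.28 on Gb5ko array 2, 10.63 and 6.97 on Gb5ko array 3 and 10.81 and 6.05 on Gb5wt array 5. The labels do not say whether an array holds RNA of more than 1 animal. Leaving out Gb5ko array 2 and Gb5wt array 4, each its group's highest in Eif2s3y, 7 members were higher at an unadjusted limma p under 0.05, and leaving out Gb5ko array 3 and Gb5wt array 6, the highest in Gh, 3 were. Shares over all genes in both fits are not given here. In both fits 0 members passed after adjustment.

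Many macrophage promoters carry PU-boxes, the binding letters of PU.1, with GAGGAA as the core. RefSeq promoter windows of assembly GRCm38.p6, from 250 bases before to 50 after a transcript start, were found for 23 of the 32 members. GAGGAA, on either strand, stood in the windows of 14 of 23 members, 60.9%, and of 31.3% of all 27025 genes with a window. The longer GAGGAAGT, which contains it, stood in 17.4% of members and 3.69% of all genes. The overlapping letters AGGAAG stood in 73.9% and 38.4%, and GGAAGT in 52.2% and 26.5%. These 4 spellings were chosen with the array results known, and a match is a description of the letters, not of binding. GAGGAA was present at 6 of 7 phagocytic members with a window, 3 of 3 complement members, 3 of 6 homeostatic members, 1 of 3 lineage members and 1 of 4 activation members. Of 6 members with a window that were higher in Gb5ko with groups that did not overlap, 4 held it, as did 10 of 15 members whose groups overlapped, and of 2 lower members without overlap, P2ry12 and Sall1, 0 did. The windows of the following 4 members are shown as higher members with and without GAGGAA and a lower one without it. They are written 5′ to 3′ on the strand of the gene, in lower case, with GAGGAA or its complement TTCCTC in capitals. Aif1 lies at chr17:35176003-35176302 (minus strand), Fcgr3 at chr1:171059354-171059653 (minus strand), Ly86 at chr13:37345095-37345394 (plus strand) and P2ry12 at chr3:59262936-59263235 (minus strand). Fcgr3 had 2 windows, of which 1 is shown.
Aif1: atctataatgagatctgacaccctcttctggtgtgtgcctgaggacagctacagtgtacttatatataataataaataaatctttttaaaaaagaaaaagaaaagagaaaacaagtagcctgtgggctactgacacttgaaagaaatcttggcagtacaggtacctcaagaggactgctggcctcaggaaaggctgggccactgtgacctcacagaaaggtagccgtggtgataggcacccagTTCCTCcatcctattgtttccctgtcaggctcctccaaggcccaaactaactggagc
Fcgr3: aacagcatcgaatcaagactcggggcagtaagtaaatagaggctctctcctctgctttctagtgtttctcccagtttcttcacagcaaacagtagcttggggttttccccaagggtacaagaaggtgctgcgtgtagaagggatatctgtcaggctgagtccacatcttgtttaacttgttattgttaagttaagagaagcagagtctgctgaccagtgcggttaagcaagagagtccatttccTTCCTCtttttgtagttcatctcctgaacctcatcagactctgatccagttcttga
Ly86: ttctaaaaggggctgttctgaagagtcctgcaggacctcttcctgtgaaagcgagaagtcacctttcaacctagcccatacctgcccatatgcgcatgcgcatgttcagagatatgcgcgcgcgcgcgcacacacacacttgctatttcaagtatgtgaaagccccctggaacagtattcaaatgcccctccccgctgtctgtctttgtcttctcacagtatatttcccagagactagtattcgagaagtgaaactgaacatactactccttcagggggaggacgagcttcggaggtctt
P2ry12: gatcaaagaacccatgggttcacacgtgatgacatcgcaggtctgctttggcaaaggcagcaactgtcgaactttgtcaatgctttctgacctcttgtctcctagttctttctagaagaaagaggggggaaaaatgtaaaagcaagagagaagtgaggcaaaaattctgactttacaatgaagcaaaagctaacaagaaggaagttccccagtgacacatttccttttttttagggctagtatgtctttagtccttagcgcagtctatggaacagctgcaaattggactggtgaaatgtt
Aif1 and Fcgr3, at 0.35 and 0.31, were the members with the smallest unadjusted limma p among those higher in Gb5ko. In their windows shown here, the single match lay on the opposite strand and began at -7 and -6 from the transcript start. Ly86, at 0.24, and P2ry12, at -0.20, had 0 matches to GAGGAA in these windows, while both held AGGAAG and P2ry12 also GGAAGT, on one strand or the other.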

How the data were processed

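The authors deposited normalized log2 values, 1 for each probe set on each array. RMA and Partek are the tools in the submitters' processing notes, without versions or their order. On the RMA scale a probe set near background keeps a low positive value and large folds are compressed. The deposited values ran from 1.91 to 14.37, with array medians from 5.81 to 5.85, and were not normalized again. Of 45101 probe sets, 64 controls were left out, and 45037 entered a two-sided limma fit (lmFit, eBayes; limma 3.58.1, R 4.3.3) with p-values adjusted over all of them by Benjamini and Hochberg and called under 0.05. Residual degrees of freedom were 4 and prior ones 5.05. Precision was set by the number of arrays, and the standard errors of the members' main probe sets ran from 0.0947 to 0.25.

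Genes were named through the platform annotation, from probe sets with 1 gene symbol, and all 46 member probe sets had their Entrez identifier in the RefSeq table of GRCm38.p6, which changed 0 symbols. No build was given for the arrays, so coordinates are those of the RefSeq promoter table. A background count over genes used the brightest 1-gene probe set of each.

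Members, classes, pathway lists and tests were chosen with earlier results of these data known. Every member is named. Values per array are given for members whose groups do not overlap or whose unadjusted p was under 0.05, for 11 defining genes and for Cst7 and Lgals3. Of each pathway list the 3 genes with the smallest p are named, and any others were picked with their values known. The alternatives tried were filters, normalization, moderation, array weights, probe set choice, Eif2s3y as a covariate and arrays left out. Figures were drawn with matplotlib 3.10.9.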

Additional observations from a re-analysis of the deposited data

How the results depend on the processing

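No paired analysis was made, because the labels do not say which Gb5ko and Gb5wt samples, if any, form pairs. Over 17 alternatives to the fit, 2 of them chosen after the data were seen (leaving out the array of highest Eif2s3y, or of highest Gh, in each group), and at an adjusted threshold of 0.1, 0 member probe sets were called in limma. The smallest adjusted p of a main probe set was 0.13. Of 535 member values under these alternatives 17 changed sign, in 6 members whose difference was at most 0.18 in size. With 1 array left out, Olfml3 ran from -0.098 to 0.053, Cd53 from -0.068 to 0.083, Itgam from -0.073 to 0.19, Inpp5d from -0.048 to 0.12, Cd14 from -0.41 to 0.097 and Cst7 from -0.14 to 0.061. Array weights gave 0.014 for Olfml3 and 0.058 for Cd53. Without the arrays of highest Eif2s3y, values were 0.10 for Cd53, -0.11 for Itgam, -0.025 for Inpp5d and 0.17 for Cst7.

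With 1 array left out, members higher at an unadjusted p under 0.05 numbered 4 to 9 against 10, lower ones 1 to 2 against 1, and members higher without overlap 10 to 14 against 9, since fewer arrays overlap less often. For these counts and those below, the share over all genes in the same fit is not given here. The median over members ran from 0.12 to 0.21, and by class from 0.031 to 0.18 (homeostatic), 0.085 to 0.26 (lineage), 0.047 to 0.12 (complement), 0.19 to 0.22 (phagocytic) and 0.18 to 0.27 (activation). Without the arrays of highest Gh, 3 members were higher at that p, the median over members was 0.096, that of homeostatic genes 0.059 and that of lineage genes 0.092. Without the arrays of highest Eif2s3y, 16 members were higher without overlap and 2 lower at that p, and 2 were lower also with quantile normalization, with trend and robust eBayes and with Eif2s3y as a covariate. The homeostatic median was 0.054 with array weights. A filter at the median level left 25 members and gave a lineage median of -0.0090, and one at 4 left 30 members and gave a complement median of 0.14, because dim members dropped out. The complement median was 0.13 with probe sets averaged and 0.19 with the probe set of largest SD, and the phagocytic median 0.16 and 0.17 with these and 0.18 with quantile normalization. Where no reason is given, the cause was not tested. Without detection calls, background could not be told from signal at dim members such as Itgam and Cst7.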
